A study of Bos taurus with 6 samples.

Results

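The transcription factors that build fat cells and switch on lipid synthesis were examined in cattle muscle. They are PPARG, CEBPA, CEBPB, CEBPD, SREBF1, SREBF2, EBF1, ZNF423, MLXIPL and RXRA, chosen by name for their known roles. Their values were not used for the choice, but earlier results of these data were known. All 10 were found among the 18010 genes of the deposited transcript tables. The samples were longissimus dorsi muscle from 3 Shandong black (B) and 3 Luxi (L) cattle aged 18 months, and each animal gave one RNA-Seq library. Shandong black cattle descend from Japanese black, Luxi and Bohai black cattle, so that the breeds share Luxi ancestry, and the study describes its Shandong black animals as offspring of cloned cattle. Luxi is a local yellow cattle breed. The labels name no treatment, and they give no sex. The study's text speaks of a Shandong black cattle bull and of a Shandong black line used as a bull. It also describes its purpose as a comparison of hybrid cattle and cows, with Luxi cattle as the mother generation. Levels are given in FPKM (fragments per kilobase of transcript, scaled to the sequenced fragments of the library), a value per length of transcript. The FPKM of a gene is the sum over its transcripts.

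A preadipocyte becomes a fat cell through a cascade of transcription factors. CEBPB and CEBPD are switched on first and induce PPARG and CEBPA, which sustain each other and turn on the genes that store lipid, and PPARG binds DNA as a pair with a retinoid X receptor such as RXRA. EBF1 and ZNF423 act early, in committed precursor cells. SREBF1 and MLXIPL (also called ChREBP) drive fatty acid synthesis in response to insulin and glucose, and SREBF2 drives cholesterol synthesis and uptake. In muscle, fat cells lie between the fibres as marbling and make up a small part of the tissue.

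The libraries rest on 14.1 to 14.6 gigabases of aligned sequence in Shandong black cattle and 17.52 to 17.99 in Luxi cattle, so depth and breed cannot be told apart. XIST, the RNA that coats the inactive X chromosome in female mammals, was at 10.7, 4.83 and 14.04 FPKM in Shandong black animals 1 to 3 and at 0, 0 and 0.207 in Luxi animals 1 to 3. These values go against the word bull for the Shandong black animals, and against the word cows if it means the Luxi animals. A difference between breeds and a difference between sexes cannot be told apart in any value that follows. The study obtained the breeds from different suppliers, though it describes unified feeding, so source and breed cannot be told apart either. The tissue label was checked on 11 muscle fibre genes, whose summed FPKM was 38980 to 53860 in Shandong black cattle and 67500 and 78850 in Luxi animals 2 and 3. Luxi animal 1 stood apart with a sum of 19100, and it also had the highest summed endothelial and pericyte markers of the 6 animals. The calls and the PPARG values that rest on this animal are given with and without it. The p-values measure the spread between 3 animals per breed, and the smallest two-sided p that an exact permutation test can give here is 0.1.

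Of the 10 regulators, 9 averaged 1 FPKM or more in one or both breeds and were tested with limma on log2(FPKM + 1). MLXIPL did not reach that level. CEBPA reached it only through Shandong black cattle, the breed where it was higher. The log2 fold change of Luxi against Shandong black on that scale is written log2FC. Calls needed an adjusted p under 0.05 (Benjamini-Hochberg, over all 9781 genes tested) together with a log2FC no smaller than 1 in either direction. None of the 9 was called (0 by limma and 0 by limma voom), against 2.57% of all genes tested. At an adjusted p under 0.05 of any size there was 1, CEBPA, against 2.92% of all genes. Since CEBPA entered the test through the breed where it was higher, this is no support for a breed difference, and with no filter its limma adjusted p was 0.0691. At an unadjusted p under 0.05 there were 3, namely CEBPA, PPARG and RXRA, against 21.8% of all genes, and voom also gave 3. The animals of the breeds did not overlap for the same 3 regulators, against 29.1% of all genes tested. For 2 of them all Luxi animals were lower, against 9.13% of all genes, and for 1 all were higher, against 20.0%. CEBPA is among the 3 in both counts and among the 2 that were lower, and for the reason given it adds no support there. Whether these shares differ from those of all genes was not tested. The median log2FC of the 9 was −0.07, with 5 below 0 and 4 above. The median of all genes tested was 0.13, and it was 0.03 after scaling by size factors, so that small positive values are read against that shift.

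**Figure D1:**
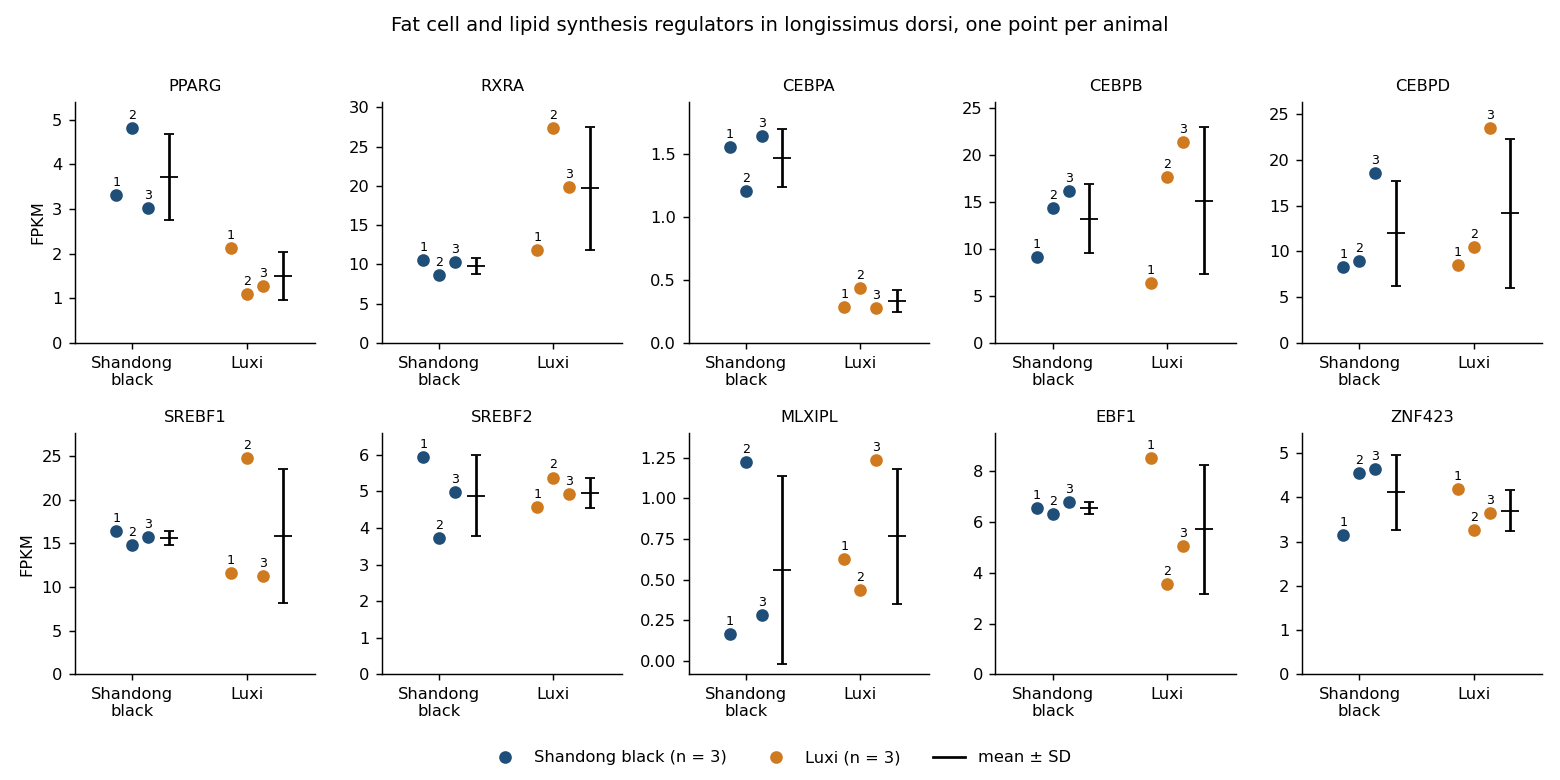
FPKM of the 10 regulators on the y axis of each panel, with Shandong black (blue) and Luxi (orange) animals on the x axis. Points are animals with their numbers, and bars are the mean ± SD of 3 animals. PPARG and CEBPA are lower in all Luxi animals, RXRA is higher in all of them, and the breeds overlap in the other panels.

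PPARG and its partner RXRA lay on opposite sides. PPARG, the nuclear receptor that commands fat cell formation, lies on the minus strand of chromosome 22, from 56710574 to 56775806 in the genome build ARS-UCD1.2. Its FPKM was 3.31, 4.81 and 3.02 in Shandong black animals 1 to 3 and 2.12, 1.10 and 1.27 in Luxi animals 1 to 3. Every Luxi animal lay below every Shandong black animal, with Luxi animal 1 the closest. The mean was 3.71 ± 0.958 (SD, n = 3) against 1.495 ± 0.545 (n = 3), a ratio of 2.48. The log2FC was −0.92 (SE 0.22, 95% confidence interval −1.45 to −0.39, limma adjusted p = 0.0791), which did not pass. Without Luxi animal 1 it was −1.09 with a limma adjusted p of 0.0337, and PPARG was called. With voom on estimated reads it was −1.55 (limma voom adjusted p = 0.101).

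RXRA, the retinoid X receptor that pairs with PPARG and with many other nuclear receptors, lies on the plus strand of chromosome 11 from 105021652 to 105114880. Its FPKM was 10.5, 8.60 and 10.4 in Shandong black cattle and 11.8, 27.4 and 19.9 in Luxi cattle. No animal overlapped, but Luxi animal 1 lay just above the highest Shandong black animal while Luxi animal 2 had the highest value of all. The mean was 9.82 ± 1.06 (SD, n = 3) in Shandong black and 19.7 ± 7.80 (n = 3) in Luxi cattle, 2.004 times as high. The log2FC was 0.86 (SE 0.31, 95% confidence interval 0.15 to 1.58, limma adjusted p = 0.161), and it did not pass. Leaving out Luxi animal 1 gave 1.17 with a limma adjusted p of 0.0289, and RXRA was then called. In that fit of 5 animals the share of all genes called was 6.10%, so that calls were more frequent in general. The study tested the same animals with Cuffdiff and lists RXRA as upregulated, with fold changes given as Luxi over Shandong black. It also names RXRA among the common regulators of FABP4 and ADIPOQ. Its call differs from the result with all 6 animals here.

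The balance of both receptors can be read within each animal, since FPKM is per length. RXRA exceeded PPARG in all 6 animals. The ratio of RXRA to PPARG in FPKM was 3.17, 1.79 and 3.42 in Shandong black cattle and 5.57, 24.9 and 15.6 in Luxi cattle. The ranges do not overlap, and this ratio was formed after the values of both genes had been seen, so no test is given. Most RXRA came from 1 of the 5 annotated transcripts listed for it, the longest in genomic span, with 72.6 to 96.4% of the gene's FPKM in every animal.

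**Figure D2:**
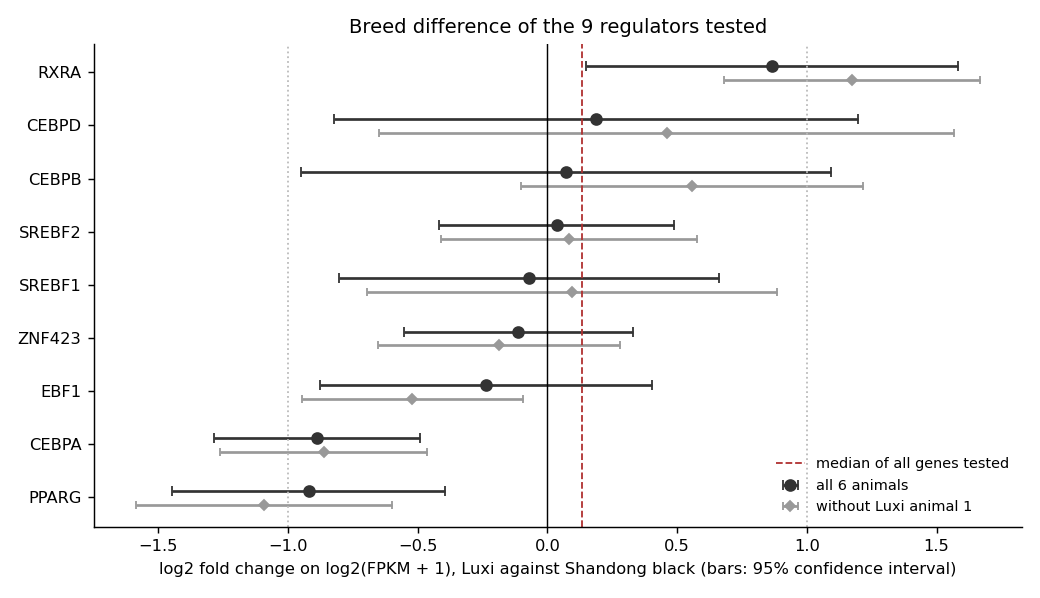
Log2 fold change on log2(FPKM + 1), Luxi against Shandong black, of the 9 regulators tested (x axis). Circles use all 6 animals and diamonds leave out Luxi animal 1, with 95% confidence intervals as bars, the dashed line marks the median of all genes tested (0.13) and the dotted lines mark −1 and 1. The intervals of PPARG, CEBPA and RXRA leave out 0 in both fits, and that of EBF1 does so only without Luxi animal 1.

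The breed difference of PPARG was looked at by where its transcripts begin, as a description without a test. Of annotated PPARG transcripts 1 was listed in these animals, which begins at position 56775806 of chromosome 22 with a first exon from 56775545 to 56775806. In all 6 animals the assembly also held transcripts that begin farther upstream, up to 58.2 kilobases away. Apart from 1 short form in Shandong black animal 3, these had a first exon ending on its 3′ side at 56832916 or at 56833907, and they shared an exon from 56811704 to 56811798 that the annotated transcript lacks. PPARG is known to be made from alternative promoters in mammals, but which protein each of these transcripts encodes was not determined here.

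The annotated transcript had an FPKM of 2.15, 2.48 and 1.43 in Shandong black cattle and of 0.00798, 0.312 and 0.439 in Luxi cattle. The transcripts from the upstream starts together had 1.16, 2.33 and 1.59 in Shandong black cattle and 2.11, 0.786 and 0.832 in Luxi cattle. Thus the breeds were apart for the annotated start, and for the upstream starts Luxi animal 1 lay among the Shandong black animals while Luxi animals 2 and 3 lay below all of them. The mean of the annotated transcript was 7.98 times as high in Shandong black as in Luxi cattle, and 5.37 times without Luxi animal 1. For the upstream transcripts the ratio was 1.36, and 2.10 without Luxi animal 1. The annotated transcript made up 64.9, 51.6 and 47.3% of PPARG FPKM in Shandong black animals and 0.377, 28.4 and 34.6% in Luxi animals.

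Those FPKM values depend on how the assembly divides reads between transcripts that share exons, so the exons particular to each start were read as well. The first exon of the annotated transcript was covered by 23.3, 32.01 and 16.3 reads per base in Shandong black animals and by 0.143, 3.47 and 3.09 in Luxi animals. Per gigabase aligned this came to 1.65, 2.19 and 1.13 against 0.00793, 0.197 and 0.176, a ratio of means of 13.0, or 8.88 without Luxi animal 1. The exon shared by the upstream starts had 1.495, 3.85 and 2.38 reads per base per gigabase in Shandong black and 2.86, 0.969 and 0.368 in Luxi cattle. The ratio of means there was 1.84, and 3.85 without Luxi animal 1. Again only Luxi animal 1 reached the Shandong black range upstream, and without it the breeds were apart at both starts. The ratio of the first to the second exon was 1.11, 0.569 and 0.475 in Shandong black animals and 0.00278, 0.204 and 0.479 in Luxi animals. Luxi animal 3 had about the ratio of Shandong black animal 3, so by exon coverage the balance of starts overlapped between the breeds. Whether the breed difference is larger at one start than at the other was not tested. When only annotated transcripts were summed for every gene, PPARG had a log2FC of −1.27 with a limma adjusted p of 0.0492 and was called.

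**Figure D3:**
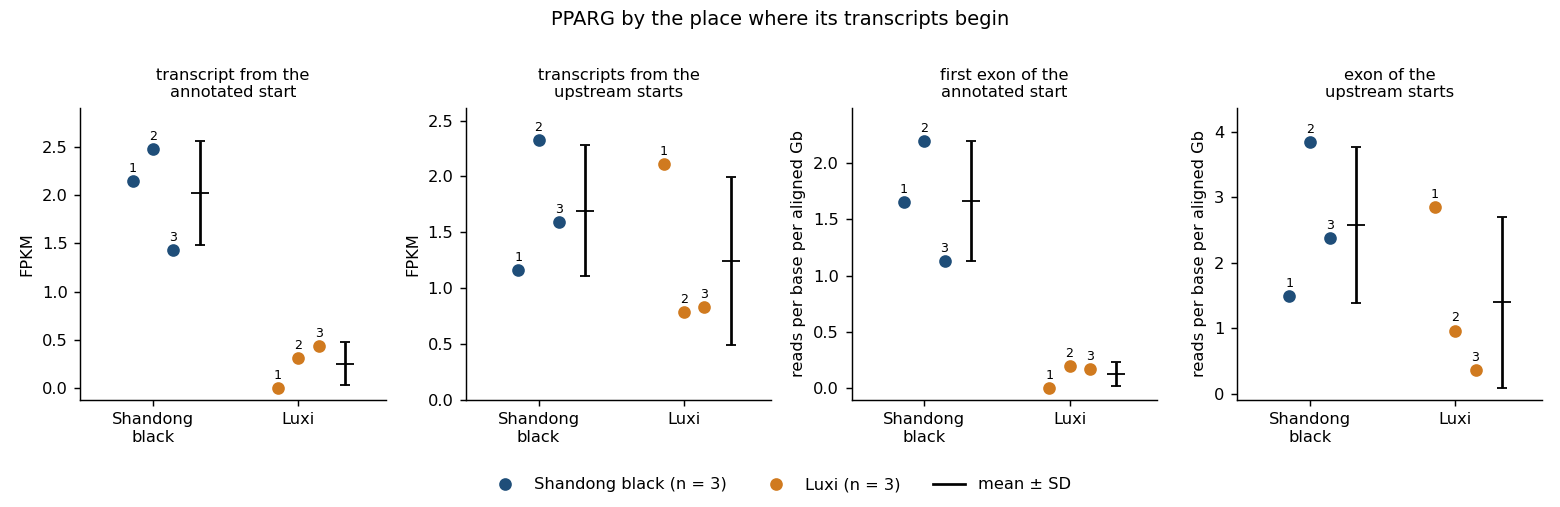
PPARG split by the start of its transcripts. The left panels show FPKM and the right panels show reads per base per gigabase aligned for the exon particular to each start, with points for animals and bars for the mean ± SD of 3 animals. Luxi animals lie between 0.00798 and 0.439 FPKM at the annotated start, below all Shandong black animals. At the upstream starts Luxi animals 2 and 3 are below them too, and Luxi animal 1 (2.11 FPKM) is among them.

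CEBPA, the CCAAT/enhancer binding protein that acts with PPARG in the mature fat cell, is a gene of 1 exon on the minus strand of chromosome 18, from 43728248 to 43729478. Its FPKM was 1.56, 1.21 and 1.65 in Shandong black cattle and 0.287, 0.438 and 0.279 in Luxi cattle. The lowest Shandong black animal lay well above the highest Luxi animal, and no animal of either breed stood apart. The mean was 1.47 ± 0.230 (SD, n = 3) against 0.335 ± 0.0893 (n = 3), a ratio of 4.40. These levels are low, with 17.7 to 23.9 reads per base of the gene in Shandong black and 4.89 to 7.69 in Luxi cattle. The log2FC was −0.89 (SE 0.17, 95% confidence interval −1.28 to −0.49, limma adjusted p = 0.0438). It passed the adjusted p and missed the size of 1, and for a gene at this level the added 1 FPKM shrinks the fold change. With TPM in place of FPKM it was −1.43 (limma adjusted p = 0.0460) and CEBPA was called. Adding 0.1 in place of 1 gave −1.86 (limma adjusted p = 0.0517), and voom gave −2.18 (limma voom adjusted p = 0.0697). Leaving out 1 animal at a time gave −0.97 to −0.84 with limma adjusted p from 0.0354 to 0.204, under 0.05 only without Luxi animal 1.

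CEBPB and CEBPD, the early members of the same family, had higher levels and wide spreads. CEBPB lies on chromosome 13 from 78205757 to 78206803, and its FPKM was 9.09, 14.4 and 16.1 in Shandong black cattle and 6.40, 17.6 and 21.4 in Luxi cattle. Luxi animal 1 was the lowest of all and Luxi animal 3 the highest. The limma log2FC was 0.07 (95% confidence interval −0.95 to 1.09, adjusted p = 0.941), and its sign turned with the scaling, to −0.06 with size factors and −0.12 with quantile normalization. CEBPD lies on chromosome 14 from 19128179 to 19129773, and its FPKM was 8.31, 9.01 and 18.6 in Shandong black cattle and 8.53, 10.5 and 23.5 in Luxi cattle. In each breed animal 3 was far above the others. The limma log2FC was 0.19 (95% confidence interval −0.823 to 1.197, adjusted p = 0.831). The intervals of both genes are wide enough to hold a change of 1 on the log2 scale in the upward direction.

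SREBF1, the master switch of fatty acid synthesis, lies on chromosome 19 from 34632992 to 34649201. Its FPKM was 16.4, 14.8 and 15.7 in Shandong black cattle and 11.6, 24.7 and 11.3 in Luxi cattle. The Shandong black animals were close together, with an SD of 0.791 around a mean of 15.6. The Luxi animals lay on both sides of them, with an SD of 7.68 around 15.9, and Luxi animal 2 was the highest. The limma log2FC was −0.07 (95% confidence interval −0.80 to 0.66, adjusted p = 0.916). The annotated SREBF1 transcripts listed in these animals were a pair with separate starts, of 20 and 19 exons. The form of 20 exons had an FPKM of 8.43, 9.24 and 8.31 in Shandong black cattle and 2.99, 16.0 and 2.46 in Luxi cattle. The form of 19 exons had 7.97, 5.58 and 7.37 in Shandong black cattle and 4.92, 8.70 and 8.79 in Luxi cattle. Both forms overlapped between the breeds, and the spread of the gene in Luxi cattle was mainly that of the form of 20 exons. In Luxi animal 1, assembled variants carried another 31.6% of SREBF1 FPKM.

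SREBF2, which drives the cholesterol pathway, was the steadiest of the 10 on the log2 scale. It lies on chromosome 5 from 112832407 to 112890177, and its FPKM was 5.93, 3.72 and 4.97 in Shandong black cattle and 4.58, 5.37 and 4.92 in Luxi cattle. The breeds overlapped, with the lowest and the highest value both in Shandong black animals. The limma log2FC was 0.04 (95% confidence interval −0.42 to 0.49, adjusted p = 0.932), so the interval leaves out a change of 1 in either direction. Its sign turned to −0.08 with size factors and to −0.12 with quantile normalization.

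MLXIPL, the glucose-responsive factor ChREBP, was the least expressed of the 10 in Shandong black cattle. It lies on chromosome 25 from 33613935 to 33632422. Its FPKM was 0.166, 1.22 and 0.284 in Shandong black cattle and 0.629, 0.436 and 1.23 in Luxi cattle. The breeds overlapped fully, and 1 animal of each breed was near 1.2 FPKM. Annotated transcripts were listed only in Shandong black animals 1 and 3, and in the other 4 animals the gene was represented by assembled transcripts alone, so that its FPKM is uncertain. An exact two-sided permutation test on log2(FPKM + 1) gave p = 0.5.

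The precursor factors EBF1 and ZNF423 overlapped between the breeds. EBF1, which acts in committed fat cell precursors and also in other lineages, lies on the minus strand of chromosome 7 from 70284253 to 70694732. Its FPKM was 6.53, 6.33 and 6.79 in Shandong black cattle and 8.51, 3.57 and 5.05 in Luxi cattle. Luxi animal 1 was above all the Shandong black animals, and Luxi animals 2 and 3 were below them. The limma log2FC was −0.24 (95% confidence interval −0.88 to 0.40, adjusted p = 0.644), and without Luxi animal 1 it was −0.52 (limma adjusted p = 0.108). ZNF423, a zinc finger protein that marks cells bound to become fat cells, lies on the minus strand of chromosome 18 from 17963192 to 18309039. Its FPKM was 3.14, 4.55 and 4.64 in Shandong black cattle and 4.18, 3.26 and 3.64 in Luxi cattle. All 3 Luxi values fell inside the Shandong black range. The limma log2FC was −0.11 (95% confidence interval −0.55 to 0.33, adjusted p = 0.764).

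Ordered by mean FPKM, Shandong black muscle held SREBF1 (15.6), CEBPB (13.2), CEBPD (11.98), RXRA (9.82), EBF1 (6.55), SREBF2 (4.87), ZNF423 (4.11), PPARG (3.71), CEBPA (1.47) and MLXIPL (0.557). Neighbours in that order had separate ranges only between RXRA and EBF1, between EBF1 and SREBF2 and between PPARG and CEBPA. In Luxi muscle the order was RXRA (19.7), SREBF1 (15.9), CEBPB (15.1), CEBPD (14.2), EBF1 (5.71), SREBF2 (4.96), ZNF423 (3.70), PPARG (1.495), MLXIPL (0.766) and CEBPA (0.335). There the ranges were separate between CEBPD and EBF1, SREBF2 and ZNF423, and ZNF423 and PPARG. RXRA moved from the fourth to the first place, although its Luxi range overlapped that of SREBF1.

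The known partners and targets of the regulators were taken from 7 lists, made with earlier results of these data known, which together name 106 genes. Of the 93 tested, 2 were called higher in Luxi cattle, against 1.54% of all genes, and 6 were called lower, against 1.02% of all genes. With size factors 1 was called higher and 7 lower. Without Luxi animal 1 the calls were 6 higher and 7 lower, while the share of all genes called was 6.10%. Leaving out Shandong black animal 1 or 3 reduced the calls of this set to 2 and to 1, in fits that called 10 and 3 of all genes. Leaving out Shandong black animal 2 left 6 calls, in a fit that called 177 of all genes. Leaving out Luxi animal 2 or 3 left 4 and 5 calls, in fits that called 0.47% and 0.91% of all genes.

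The fat cell targets of PPARG and CEBPA held all 6 calls in the lower direction. Of 16 tested, 6 were called lower and 0 higher in Luxi cattle by limma, against 1.02% and 1.54% of all genes. At a limma unadjusted p under 0.05 there were 9 lower and 1 higher, against 21.8% of all genes in either direction. The median log2FC of the list was −0.99 against 0.13 for all genes tested. The study itself lists FABP4, ADIPOQ, PLIN1, PLIN2 and LIPE as downregulated in these same animals. It reports the same direction by qRT-PCR for FABP4, ADIPOQ, PLIN1 and LIPE, and by western blot for ADIPOQ and FABP4. The list was made with such results known, so its calls and its median are no independent support. FABP4, the fatty acid carrier of fat cells, had an FPKM of 78.1, 48.9 and 62.8 in Shandong black cattle and 0.956, 3.79 and 7.003 in Luxi cattle, a log2FC of −3.90 (limma adjusted p = 0.0195). ADIPOQ, the fat cell hormone adiponectin, had 67.4, 30.8 and 53.6 against 0.576, 5.76 and 6.76 FPKM, a log2FC of −3.50 (limma adjusted p = 0.0368). The call of ADIPOQ was lost with a pseudocount of 0.1, no filter, voom and the replicate block, and when any animal other than Luxi animal 1 was left out. The log2FC of both genes was larger in size than that of PPARG or CEBPA, a difference that was not tested. PLIN1, which coats the lipid droplet, fell by 3.06 on the log2 scale (limma adjusted p = 0.00701), and CIDEC, which fuses lipid droplets, fell by 2.78 (limma adjusted p = 0.0216). The call of PLIN1 held in all 9 other settings and whichever animal was left out, and that of FABP4 in 8 of the 9 settings and 3 of the 6 fits with 1 animal left out. The call of CIDEC held in 6 of the 9 settings and 3 of the 6. The other called targets were PLIN2 and LIPE, and DGAT2, which esterifies fat, was called lower only without Luxi animal 1. LPL, the lipase that frees fatty acids from circulating lipoproteins and is made by muscle fibres as well as fat cells, was the target farthest in the other direction, with a log2FC of 0.85 (limma adjusted p = 0.106). It was named after its values were seen.

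The fatty acid synthesis targets of SREBF1 and MLXIPL held no call in 12 tested (0 by limma, and 3 lower and 0 higher at an unadjusted p under 0.05, and 0 by limma voom). Their median log2FC was −0.34, against 0.13 for all genes tested. Of all genes, 21.8% were at a limma unadjusted p under 0.05 in either direction. The value farthest down was that of THRSP, a nuclear protein of lipid synthesizing tissues, with an FPKM of 2.30, 2.31 and 2.65 in Shandong black cattle and 0.0540, 0.771 and 1.081 in Luxi cattle, a log2FC of −1.12 (limma adjusted p = 0.0729). THRSP entered the test only through Shandong black cattle, the breed where it was higher, so its test is no support for a breed difference. The value farthest up was that of ACACB, the acetyl-CoA carboxylase of the mitochondrial surface, at 0.61 (limma adjusted p = 0.296). ELOVL6, an elongase of fatty acids, passed the adjusted p but not the size, at −0.80 (limma adjusted p = 0.0440), and was named after its values were seen. It entered the test only through Shandong black cattle, with a mean FPKM of 1.79 against 0.609, and it was called lower with a pseudocount of 0.1. FASN, the fatty acid synthase, had overlapping breeds with 5.78, 5.70 and 6.01 FPKM against 3.50, 5.63 and 5.86, and was also named for its role after the values were seen.

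The sterol targets of SREBF2 were a little higher in Luxi cattle in 13 of 14 tested, with 0 called (limma, with 4 higher and 0 lower at an unadjusted p under 0.05, and 0 by limma voom) and a median of 0.33, or 0.25 with size factors. In 8 of them every Luxi animal was above every Shandong black animal, against 20.0% of all genes for that direction. Most genes tested lay above 0 too, with a median of 0.13, or 0.03 with size factors. Of all genes, 21.8% were at a limma unadjusted p under 0.05 in either direction. MVK, mevalonate kinase, was farthest up at 0.67 (limma adjusted p = 0.118). MVD, a later enzyme of the same pathway, was farthest down at −0.19 (limma adjusted p = 0.748). These values stand beside a regulator, SREBF2, whose own levels overlapped.

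Coactivators and corepressors of the nuclear receptors had 0 calls in 11 tested (limma, with 7 higher and 0 lower at an unadjusted p under 0.05, and 0 by limma voom) and a median of 0.43. All 11 had a log2FC above 0, though NCOR1, a corepressor and the lowest at 0.07 (limma adjusted p = 0.854), turned to −0.06 with size factors. Most genes tested lay above 0 too, with a median of 0.13. Of all genes, 21.8% were at a limma unadjusted p under 0.05 in either direction. PPARGC1A, the coactivator of PPARG that promotes mitochondria, had an FPKM of 2.07, 1.70 and 1.92 in Shandong black cattle and 44.5, 5.18 and 7.14 in Luxi cattle. Luxi animal 1 was far above the other 2, and the log2FC of 2.19 did not pass (limma adjusted p = 0.129). The study lists PPARGC1A as upregulated in the same animals with Cuffdiff, and reports the same direction by qRT-PCR. Without Luxi animal 1 this gene and its relative PPARGC1B were called higher, in a fit that called 6.10% of all genes. PPARGC1B entered the test only through Luxi cattle, the breed where it was higher, with a mean FPKM of 3.13 against 0.626. Its call is therefore no support for a breed difference.

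Among the nuclear receptor relatives 0 of 8 were called (limma, with 0 at an unadjusted p under 0.05, and 0 by limma voom), and the median was 0.26. For all genes tested limma called 2.57%, 21.8% were at an unadjusted p under 0.05 and the median was 0.13. NR1H3, the liver X receptor alpha, was farthest up at 0.55 (limma adjusted p = 0.374). RXRG, the retinoid X receptor of muscle fibres, was farthest down with a log2FC of −0.001 (limma adjusted p = 0.999), and its FPKM was 4.94, 6.36 and 6.62 in Shandong black and 1.68, 10.9 and 9.39 in Luxi cattle. RXRB had 2.97, 3.22 and 3.38 against 3.27, 6.68 and 5.98 FPKM. For both of these relatives of RXRA, Luxi animals 2 and 3 were above every Shandong black animal and the overlap came from Luxi animal 1. Without that animal all 3 retinoid X receptor genes were apart and higher in Luxi cattle, as were 35.3% of all genes tested.

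The median of the C/EBP relatives, early inducers and repressors of fat cell formation was 0.33, against 0.13 for all genes tested. Of 21 tested, 1 was called, against 2.57% of all genes. It was FOXO1, a forkhead factor held in check by insulin that restrains fat cell formation, with an FPKM of 8.24, 4.73 and 5.53 in Shandong black cattle and 38.2, 36.0 and 30.5 in Luxi cattle. Its log2FC was 2.35 (limma adjusted p = 0.00964), and all 3 Luxi animals, animal 1 included, lay close together. Its call held in all 9 other settings and in 5 of the 6 fits with 1 animal left out, and was lost without Shandong black animal 3. Without Luxi animal 1, HES1 was called higher as well. CEBPG, a C/EBP relative without an activation domain of its own, was farthest down at −0.68 (limma adjusted p = 0.270).

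Of the genes that process SREBP or pair with ChREBP, 1 of 11 was called, against 2.57% of all genes. It was PRKAA2, the catalytic subunit of AMP-activated kinase that prevails in muscle. Its FPKM was 2.76, 3.80 and 4.04 in Shandong black cattle and 7.62, 13.0 and 8.48 in Luxi cattle, a log2FC of 1.22 (limma adjusted p = 0.0466), a call that held in 3 of 9 other settings (a pseudocount of 0.1, the filter on all 6 animals and TPM) and, of the fits that left out 1 animal, only without Luxi animal 1. PRKAA1, the other catalytic subunit, lay on the opposite side with 12.3, 6.68 and 9.51 FPKM against 4.59, 5.49 and 5.89, a log2FC of −0.70 that did not pass (limma adjusted p = 0.149). MLXIP, the close relative of MLXIPL that muscle expresses, had an FPKM of 5.98, 5.42 and 5.23 in Shandong black cattle and 12.5, 46.0 and 27.9 in Luxi cattle. Its log2FC of 2.01 did not pass (limma adjusted p = 0.0546). MLXIP was called in 2 of 9 other settings (quantile normalization and TPM) and, of the fits that left out 1 animal, only without Luxi animal 1.

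**Figure D4:**
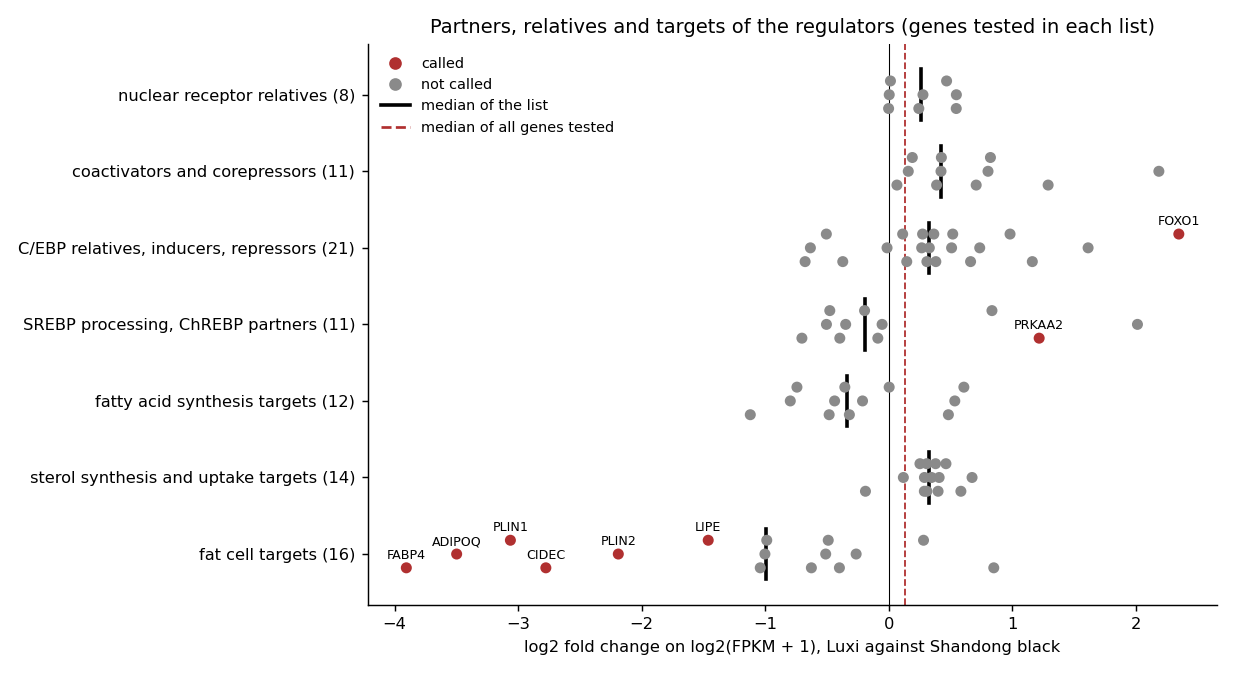
Log2 fold change on log2(FPKM + 1), Luxi against Shandong black (x axis), of each tested gene in the 7 lists of partners, relatives and targets. Red points are called genes with their names, black bars are list medians and the dashed line is the median of all genes tested (0.13). The fat cell targets hold the 6 genes called lower, and FOXO1 and PRKAA2 are the ones called higher.

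Summed markers of fat cells, of fibro-adipogenic cells and of endothelium were apart between the breeds. Those of pericytes, macrophages, satellite cells and muscle fibres overlapped. These values stand beside those of the regulators. The 7 fat cell markers, of which ADIPOQ, PLIN1, CIDEC, LEP and CFD are also on the list of PPARG and CEBPA targets and THRSP on that of fatty acid synthesis, summed to an FPKM of 120, 81.5 and 110 in Shandong black cattle and 13.8, 24.0 and 31.0 in Luxi cattle. Of these 7, 3 were called lower, against 1.02% of all genes. None of the 7 was at 0 in every animal of a breed, though leptin (LEP) was listed at 0 in Luxi animal 1. PPARG and CEBPA, which fat cells express, were lower in the same animals. In a piece of muscle, fewer fat cells and less RNA per fat cell cannot be told apart, and the part of the fat cell content in the values of PPARG and CEBPA was not tested. Luxi animal 1 had the lowest fat cell sum and yet the highest PPARG of its breed, at an FPKM of 2.12, nearly all of it from the upstream starts.

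The 9 markers of fibro-adipogenic progenitors and fibroblasts, the kind of cell in which EBF1 and ZNF423 are known to act, summed to 129 to 182 in Shandong black and to 376 to 521 in Luxi cattle. COL3A1 was the 1 called among the 8 tested, against 2.57% of all genes, and it was higher. Without COL1A1 and COL3A1, a choice made after seeing the data, the sum was 123, 90.8 and 108 in Shandong black and 206, 158 and 116 in Luxi cattle, and the breeds overlapped. PI16, a progenitor marker, lay the other way with a log2FC of −1.08 (limma adjusted p = 0.165) and was called lower without Luxi animal 1. The progenitor receptor PDGFRA had an FPKM of 9.01, 6.96 and 8.35 against 10.5, 11.2 and 10.7, a log2FC of 0.38 (limma adjusted p = 0.262). Endothelial markers summed to 19.8 to 21.5 in Shandong black cattle and to 74.9, 25.0 and 39.1 in Luxi cattle, pericyte and smooth muscle markers to 57.4 to 68.9 against 247, 39.4 and 72.6, and macrophage markers to 16.6 to 25.6 against 19.3, 12.4 and 6.70. Markers of blood cells summed to at most 3.88 in any animal, those of liver to at most 0.999, and those of satellite cells overlapped between the breeds. Of 6 pericyte and smooth muscle markers NOTCH3 was called, higher in Luxi cattle, against 2.57% of all genes. That call held in 2 of 9 other settings and in 0 of 6 fits with 1 animal left out. Of 11 muscle fibre markers TNNI1 was called, lower in Luxi cattle, against the same 2.57%. The call of TNNI1 held in 4 of 9 other settings and 2 of those 6 fits. The part of all these cells in the regulators' values was not tested.

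**Figure D5:**
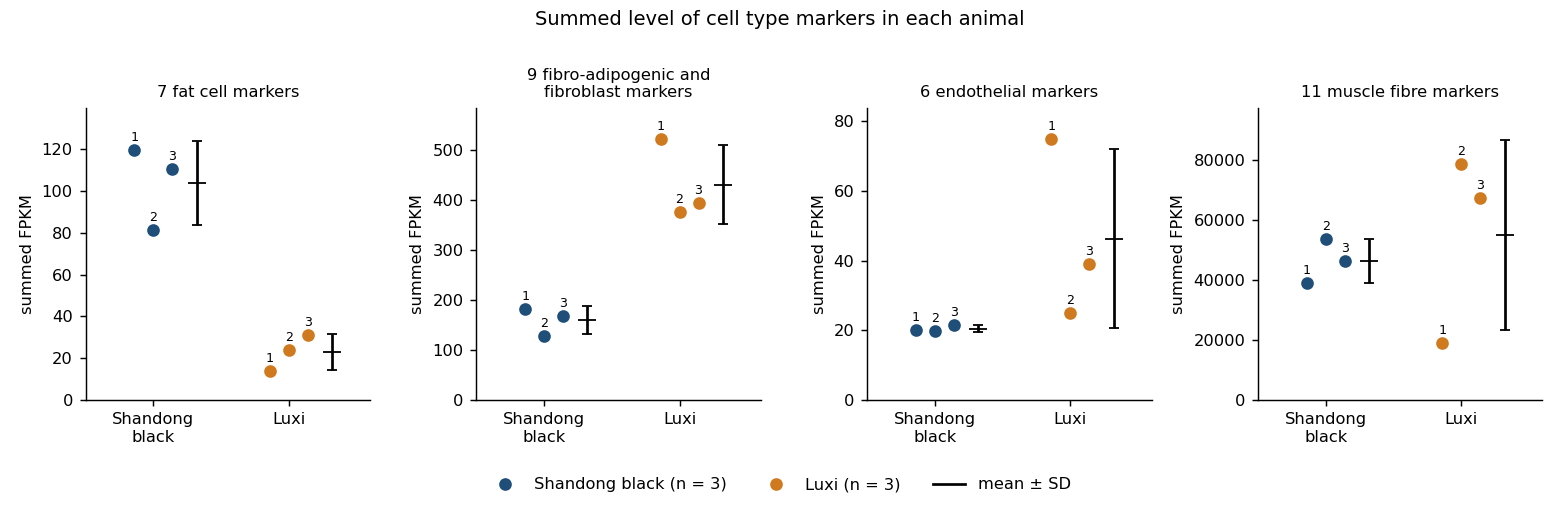
Summed FPKM of the marker genes of 4 cell types (y axes) in each animal, with bars for the mean ± SD of 3 animals per breed. Fat cell markers are lower in all Luxi animals, fibro-adipogenic and fibroblast markers are higher in all of them, and Luxi animal 1 has the lowest muscle fibre sum (19100) and the highest endothelial sum (74.9).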

How the data were processed

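Fastp was used by the authors to trim the reads and HISAT to align them to the cattle genome ARS-UCD1.2. StringTie then assembled each library on its own, guided by the NCBI annotation. Per the file headers the StringTie version was 1.3.3b. The deposited tables list, for each transcript of an animal, its coverage, FPKM and TPM. The FPKM of a gene was computed here as the sum of its annotated transcripts and of those unnamed assembled transcripts of which 50% or more lay on its exons, strand included. Assembled transcripts left out carried 21.6 to 29.8% of a library's FPKM. A transcript not listed in an animal counted as 0. No read counts were used, so no counting error is given, and the small number of animals sets the precision.

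The test covered 9781 genes that averaged 1 FPKM or more in one or both breeds. It was limma 3.58.1 in R 4.3.3 on log2(FPKM + 1) with an intensity trend, without covariates, adjusted by Benjamini-Hochberg. The procedure was tested on simulated data, with changes larger than the main log2FC of any regulator. That check therefore does not show whether changes of the regulators' size would be called. Breeds and animal numbers were taken from the sample labels. Alternatives were a pseudocount of 0.1, no filter, a filter on the mean of all 6 animals, median-of-ratios size factors, quantile normalization, TPM, voom on reads estimated from coverage at a length of 150 bases, annotated transcripts alone, the animal number as a block, an adjusted p without a size limit, and each animal left out in turn.

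The regulators and the lists were chosen with earlier results of these data known. From each list the text names the called genes (up to 4 in lists of targets) and, where fewer than 2 were called, the genes with the highest and lowest log2 fold change, and it names the genes nearest to the 3 most variable regulators. Some list genes, among them WNT10B, PNPLA3, PKLR, STARD4, RETN, VWF, ALAS2, PAX7, ALB and the Y-linked genes, were not analysed here. Chromosome numbers were assigned through gene symbols shared with the RefSeq gene table of ARS-UCD2.0, and coordinates are those of the files. Promoter and protein sequences were not used here.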

Additional observations from a re-analysis of the deposited data

How the results depend on the processing

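With 3 animals per breed, the calls depended most on single animals. The number of regulators called was 0 with all animals and 0 to 2 when 1 animal was left out (2 without Luxi animal 1, where 6.10% of all genes were called), 1 with TPM (CEBPA, 2.83% of all genes), 1 with annotated transcripts alone (PPARG, 1.82%), and 1 at an adjusted p under 0.05 of any size (CEBPA, 2.92%), against 2.57% of all genes in the main comparison. The number whose animals did not overlap was 3, against 29.1% of all genes, and 3 to 5 with 1 animal left out, against 34.0 to 49.9% of all genes, since fewer animals separate more easily. CEBPA, which entered the test only through Shandong black cattle, is among the regulators in each of these counts of no overlap. Partners and targets called numbered 8 (with 2.57% of all genes called), 3 without a filter (0.261%) and 5 with voom (0.93%). They numbered 5 with the replicate block (1.38%) and 1 to 13 with 1 animal left out (0.0307 to 6.10%). The median log2 fold change of the regulators stayed within 1 SD of its value in every alternative, from −0.22 with quantile normalization to 0.08 without Luxi animal 1. The cause of these shifts was not tested.

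The directions of PPARG, CEBPA, RXRA and ZNF423 held in all alternatives in which they were tested, and CEBPA was not tested where the mean of all 6 animals had to reach 1. With all animals, the limma adjusted p of CEBPA ranged from 0.0339 with quantile normalization to 0.0945 with the replicate block, that of PPARG from 0.0492 to 0.164 and that of RXRA from 0.136 to 0.265. Directions near 0 turned. CEBPB was −0.061 with size factors, −0.12 with quantile normalization and −0.0543 with TPM, and −0.24 to 0.56 with 1 animal left out. SREBF2 was −0.0805, −0.12 and −0.0705 in the same alternatives and −0.11 to 0.16 with 1 animal left out. With 1 animal left out CEBPD ranged from −0.22 to 0.53, SREBF1 from −0.42 to 0.11 and EBF1 from −0.52 to 0.0075.

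Animals of both breeds share replicate numbers, but same-numbered animals are different animals. The correlation of their deviations was 0.084, 0.087 and 0.075, and each animal correlated best with its own number, a hint from the data and not from the design. With the replicate block, 135 of all genes were called in place of 251, 0 regulators were called as before, their median log2 fold change was −0.07 as before, and CEBPA had a limma adjusted p of 0.0945.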

Other observations

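The 3 regulators with the widest spread over the 6 animals were RXRA, CEBPD and CEBPB, and the genes with the most similar pattern were looked up among 9637 tested genes outside the lists. Likeness was the mean absolute difference of log2(FPKM + 1), each gene centred on its own mean over the 6 animals, with smaller values for more similar patterns. The nearest genes to RXRA were REPIN1 (0.0794), ZNF516 (0.0827) and FOXJ2 (0.0845). For CEBPD they were RAB4B (0.166), ZNF45 (0.177) and CISD3 (0.183). For CEBPB they were LOC100847363 (0.127), ENDOG (0.130) and TUBA4A (0.130).

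Assembled transcripts that lay inside the regulators' genes but were added to no gene were summed as well. On the strand of EBF1 they reached an FPKM of 14.7 in Shandong black animal 2 and 22.6 in Luxi animal 1, 3.62 in Shandong black animal 3 and 0.469 in Luxi animal 3, with none listed in the other animals. EBF1 itself was 6.33 and 8.51 FPKM in the first pair, so its level would depend on whether such transcripts are counted. Inside RXRA and CEBPA no such transcript was listed on the gene's strand, and inside PPARG they summed to at most 0.736 FPKM. On the opposite strand, sums were at most 1.81 FPKM in CEBPB, 1.10 in CEBPD and 2.08 in SREBF1, and none was listed in PPARG or CEBPA.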
